A study of Rattus norvegicus with 96 samples.

Results

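The genes described here cover the life cycle of GABA, the main inhibitory transmitter of the forebrain, and its GABA-B receptor. They are Gad1, Gad2, Slc32a1, Slc6a11, Abat, Gabbr1, Gabbr2 and Gphn, and they were chosen by name, with every probe set annotated to 1 of these symbols alone. That gave 16 probe sets for 8 genes, out of 31042 probe sets and 14217 genes with a name on the array. Gabbr1 had 5 probe sets, Abat had 3, Gad1 and Gabbr2 had 2 each, and the other 4 genes had 1 each.

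RNA came from the central nucleus of the amygdala, a largely GABAergic part of the forebrain. The rats belonged to 10 lines, in 5 pairs selected for a high and a low preference for alcohol. The preferring line of each pair is named first: HAD1 and LAD1 (9 and 10 arrays), HAD2 and LAD2 (10 and 10), P and NP (10 and 10), AA and ANA (10 and 10), and sP and sNP (8 and 9). The design asks which transcripts differ between a preferring line and its partner, and whether a difference recurs over pairs. No age, sex, treatment or alcohol exposure is given in the labels used here, each array is labelled with 1 animal, and animals of a line share descent, so that a line difference can stem from selection or from chance fixation in that line and these cannot be told apart. All levels are the authors' log2 values from RMA, a routine of background correction, normalization and summary of probes. Each level belongs to its own probe set, so no gap in level between probe sets is read as a difference in expression, and a percentile of brightness describes signal alone. A difference is the preferring line's mean log2 level less that of its partner, with a standard error (SE) or a 95% interval.

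GABA is made from glutamate by 2 glutamate decarboxylases, GAD67 from Gad1 and GAD65 from Gad2. The vesicular transporter VGAT, from Slc32a1, loads it into synaptic vesicles, the transporter GAT-3, from Slc6a11, takes it up mainly into astrocytes, and GABA transaminase, from Abat, breaks it down. Slow inhibition runs through the GABA-B receptor, which works only as a pair of the Gabbr1 product, which binds GABA, and the Gabbr2 product, which couples to the G protein. Gephyrin, from Gphn, is the scaffold that holds GABA-A and glycine receptors at inhibitory synapses. Rat Gabbr1 gives several transcript variants, of which GABA-B1a and GABA-B1b start from separate promoters.

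RefSeq sequences of the GRCr8 assembly were matched by symbol for 7 of the 8 genes, from 250 bases before to 50 bases after the start that the table uses, whose transcript is not named there. For Gad1 and Gabbr1 that start lies 192 and 116 bases inside the outermost RefSeq start of the gene, and for Gad2 it is that start. The brightest probe sets of Gad1 and Gad2 differ in spread, and the probe sets of Gabbr1 differ from each other. The windows of Gad1, Gad2 and Gabbr1 are shown because the results turn most on these genes. They lie at chr3:75777202-75777501 on the plus strand (Gad1), chr17:89671468-89671767 on the plus strand (Gad2) and chr20:1499187-1499486 on the minus strand (Gabbr1). Each is written 5′ to 3′ along its gene, and capitals mark matches on either strand to the TATA box (TATAAA), the GC box (GGGCGG), the full cAMP response element (TGACGTCA) or its short form (TGACG), which the full form contains.
Gad1: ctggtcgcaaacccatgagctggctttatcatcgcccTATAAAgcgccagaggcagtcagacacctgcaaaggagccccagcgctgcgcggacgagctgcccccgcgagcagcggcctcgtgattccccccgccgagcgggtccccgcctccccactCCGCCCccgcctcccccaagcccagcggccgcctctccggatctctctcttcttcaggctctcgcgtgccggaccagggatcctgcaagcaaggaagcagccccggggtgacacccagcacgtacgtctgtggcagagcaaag
Gad2: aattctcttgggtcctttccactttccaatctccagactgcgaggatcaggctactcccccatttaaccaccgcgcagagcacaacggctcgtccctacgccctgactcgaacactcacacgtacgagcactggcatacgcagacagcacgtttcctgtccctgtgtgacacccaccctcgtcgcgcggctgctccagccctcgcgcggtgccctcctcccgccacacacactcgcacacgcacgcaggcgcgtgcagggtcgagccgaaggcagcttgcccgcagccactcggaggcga
Gabbr1: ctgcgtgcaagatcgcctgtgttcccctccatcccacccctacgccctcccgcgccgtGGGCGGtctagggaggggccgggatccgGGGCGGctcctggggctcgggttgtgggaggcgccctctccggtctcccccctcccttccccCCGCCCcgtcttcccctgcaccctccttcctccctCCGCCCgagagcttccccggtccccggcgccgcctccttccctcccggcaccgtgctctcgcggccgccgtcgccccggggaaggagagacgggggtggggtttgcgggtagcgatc
Gad1 held 1 TATA box and 1 GC box, Gad2 held none of the 4 motifs, and Gabbr1 held 4 GC boxes. Over all 27457 promoters of the table, 14.3% held the TATA box, 34.9% the GC box, 22% the short and 1.91% the full cAMP response element. The GC content was 67.7% in Gad1, 63.7% in Gad2 and 75.0% in Gabbr1, against a median of 52.3% over all promoters. These windows describe the genes; no measurement of these data was made on them.

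Several features of the arrays touch every result. The 3' control probe set of GAPDH less the 5' one, a log2 ratio and a sign of RNA quality and labelling, averaged 3.33 to 4.09 in the 4 HAD and LAD lines and 0.20 to 0.43 in the other 6 lines. On a score of line resemblance built from other arrays of the same pair, 15 of 96 arrays lay on the side of the line opposite to their label. These doubted arrays number 2 in HAD1 and LAD1, 4 in P and NP, 5 in AA and ANA, 4 in sP and sNP, and 0 in HAD2 and LAD2. Because that score is itself made from line differences, values without these arrays are given beside the labelled ones and not in their place. The array titled LAD1 36 carries HAD1 in its source name, and it was kept as LAD1. Arrays sP 2 and sNP 2 differed by a standard deviation of 0.09 over all probe sets, against 0.16 for the next closest pair of arrays. Of 13 central amygdala markers 12 were measured: Penk, Pdyn and Sst lay above the 90th percentile of brightness, Nts, Scn4b, Cartpt, Prkcd and Ezr between the 72.14 and 89.86 percentiles, Crh at 64.0, Dlk1 at 46.3, Calcrl at 21.1 and the oxytocin receptor Oxtr at 3.14. Brightness differs by probe set, so these percentiles do not tell which of the markers are expressed. Striatal markers were lower in AA than in ANA for 10 of 10 genes (median difference -0.32) and higher in sP than in sNP for 10 of 10 (median 0.29), in each case for 10 of 10 with any single array left out (medians from -0.44 without AA 19 to -0.20 without AA 1, and from 0.18 without sP 5 to 0.41 without sP 9). Choroid plexus markers were higher in P than in NP for 6 of 6 genes (median 0.56), but for 5 of 6 with a median of 0.04 without the array P 5. Microglial markers were lower in HAD1 than in LAD1 for 10 of 10 genes (median -0.19), and choroid plexus markers were lower in HAD2 than in LAD2 for 6 of 6 (median -0.12). The part of these marker shifts in the differences below was not tested, and in such tissue samples fewer cells of a type and less RNA per cell cannot be told apart.

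No probe set of the 8 genes passed the test in any of the 5 line pairs as labelled, with limma and Benjamini-Hochberg adjustment over the 31042 probe sets at a threshold of 0.05. The counts were 0 of 16 in each pair. The same test called 0.963% of all probe sets in HAD1 and LAD1, 4.09% in HAD2 and LAD2, and 0% in each of the other 3 pairs. At an unadjusted p under 0.05 there were 2 of 16 in HAD1 and LAD1, where 11% of all probe sets lay, 5 of 16 in HAD2 and LAD2 (all 5 lower in HAD2), where 16.4% lay, 0 of 16 in P and NP (4.91%), 1 of 16 in AA and ANA (4.92%) and 1 of 16 in sP and sNP (4.32%). The 5 in HAD2 and LAD2 were Gabbr1 1375720_at, 1369372_at and 1388039_a_at, Gad1 1370760_a_at and Gad2, so probe sets of 1 gene recur among them. For every one of the 80 combinations of probe set and pair, the arrays of both lines overlapped. Over all probe sets the share without overlap was 0.0193% in HAD1 and LAD1, 0.86% in HAD2 and LAD2, 0% in P and NP, 0% in AA and ANA, and 0.00966% in sP and sNP, so that overlap was the rule on the array. The largest difference of any probe set in any pair was 0.38 in size, for Gad2 in HAD2 and LAD2.

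**Figure D1:**
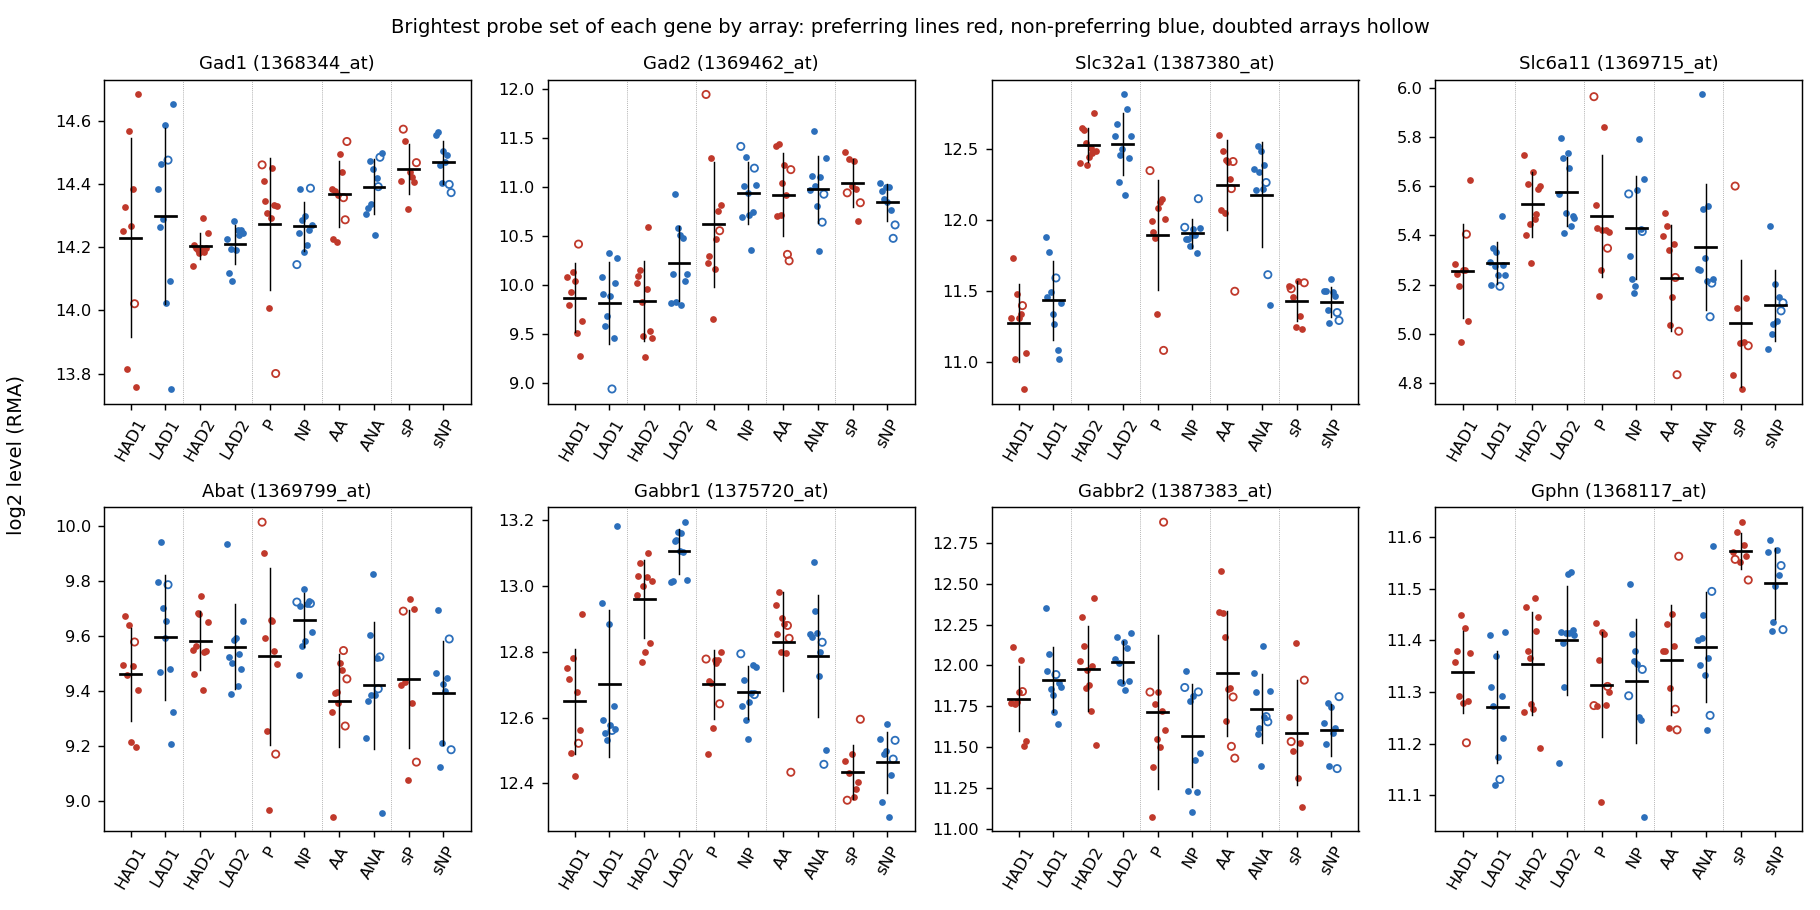
Log2 level of the probe set with the highest mean of each gene in every array, with lines on the horizontal axis in pairs. Points are arrays (red, preferring; blue, non-preferring; hollow, doubted), bars show the mean and SD. The arrays of both lines overlapped in every pair and panel.

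Neither decarboxylase gene passed the test in a pair, and the representative Gad1 probe set, 1368344_at, had a smaller SD between arrays than the Gad2 probe set in every line. Gad1 1368344_at lay at the 99.84 percentile of brightness and averaged between 14.20 in HAD2 and 14.47 in sNP. Its difference was -0.07 ± 0.13 (SE) in HAD1 and LAD1, -0.01 ± 0.03 in HAD2 and LAD2, 0.01 ± 0.07 in P and NP, -0.02 ± 0.04 in AA and ANA, and -0.02 ± 0.04 in sP and sNP. In HAD2 the 10 arrays ran from 14.14 to 14.29 with a median of 14.20, and in LAD2 from 14.09 to 14.28 with a median of 14.23. The 95% interval of that difference, from -0.06 to 0.05, is the narrowest of all members in any pair. In HAD1 the 9 arrays ran from 13.76 to 14.68, so that a difference of 0.19 upwards or 0.33 downwards lay within the interval there.

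The second Gad1 probe set, 1370760_a_at, averaged 5.61 to 5.74 in the HAD and LAD lines and 7.56 to 8.02 in the other 6 lines. Without detection calls, low expression and background in the HAD and LAD lines cannot be told apart for this probe set. The difference of 1370760_a_at was 0.08 ± 0.09 in HAD1 and LAD1, -0.14 ± 0.06 in HAD2 and LAD2 (unadjusted p = 0.0439 from limma), 0.21 ± 0.17 in P and NP, -0.08 ± 0.14 in AA and ANA, and 0.09 ± 0.11 in sP and sNP. The 2 Gad1 probe sets had opposite signs in 2 of 5 pairs, HAD1 and LAD1 and sP and sNP.

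Gad2 had the largest single difference of the 8 genes, with signs that varied over pairs and no call. In HAD2 the 10 arrays ran from 9.27 to 10.59 with a median of 9.89, and in LAD2 from 9.80 to 10.93 with a median of 10.11. The difference was -0.38 (95% interval -0.72 to -0.05; unadjusted p = 0.0255, adjusted p = 0.222 from limma). In P the arrays ran from 9.65 to 11.94 with a median of 10.51, and in NP from 10.35 to 11.41 with a median of 10.97. That difference was -0.32 (interval -0.76 to 0.11; adjusted p = 1 from limma), and it had the smallest p of the 16 probe sets in that pair. The array with the highest Gad2 value in P, P 1 at 11.94, is a doubted array. The lowest, P 5 at 9.65, is not, and it is the array named above for choroid plexus markers. With single arrays left out, the P minus NP difference ran from -0.47 without P 1 to -0.21 without P 5. Without the 4 doubted arrays the P minus NP difference was -0.39 ± 0.18 (adjusted p = 0.556 from limma). The Gad2 difference was 0.20 in sP and sNP (interval -0.0045 to 0.40) and 0.05 in HAD1 and LAD1 (interval -0.28 to 0.39). Without HAD1 28 and LAD1 37 the HAD1 value was -0.11 ± 0.13. In AA and ANA the difference was -0.06 ± 0.16. The F test of whether the 5 Gad2 differences vary gave an unadjusted p of 0.113 and an adjusted p of 0.497 in limma, so the opposite signs of the HAD2 and sP pairs were not told apart by that test.

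Slc32a1, which loads GABA into vesicles, did not pass the test in any pair. Its difference was -0.16 (interval -0.40 to 0.09) in HAD1 and LAD1, -0.01 (-0.16 to 0.14) in HAD2 and LAD2, -0.02 (-0.26 to 0.23) in P and NP, 0.07 (-0.23 to 0.36) in AA and ANA, and 0.01 (-0.12 to 0.13) in sP and sNP. Level and pair went together: line means were 11.27 and 11.43 in HAD1 and LAD1, 12.53 and 12.54 in HAD2 and LAD2, 11.89 and 11.91 in P and NP, 12.24 and 12.18 in AA and ANA, and 11.43 and 11.42 in sP and sNP. The HAD2 and HAD1 pairs, which share a high GAPDH ratio, lay at opposite ends of that range.

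Slc6a11, the astrocytic uptake transporter, was measured by a dim probe set, with line means from 5.04 in sP to 5.58 in LAD2 where values on the arrays began at 3.68. No detection calls were used here, so low expression and background cannot be told apart for it. Its differences were -0.03 ± 0.06 in HAD1 and LAD1, -0.05 ± 0.06 in HAD2 and LAD2, 0.05 ± 0.10 in P and NP, -0.13 ± 0.10 in AA and ANA, and -0.07 ± 0.09 in sP and sNP. The sign was negative in 4 of 5 pairs, with every interval including 0.

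Abat, which breaks GABA down, was measured by 3 probe sets, which had the same sign in 3 of 5 pairs and none of which was called. For the representative 1369799_at, the difference was -0.13 ± 0.09 in HAD1 and LAD1, 0.02 ± 0.06 in HAD2 and LAD2, -0.13 ± 0.10 in P and NP, -0.06 ± 0.09 in AA and ANA, and 0.05 ± 0.10 in sP and sNP. For 1375321_at it was -0.12 ± 0.10, 0.13 ± 0.08, -0.14 ± 0.11, 0.11 ± 0.19 and 0.18 ± 0.12 in the same order of pairs. Its sign in AA and ANA rested on the array ANA 6, at 6.13 against 7.72 for the next ANA array. With single arrays left out that difference ran up to 0.16, and down to -0.07 without ANA 6. All 3 probe sets were lower in P than in NP, and higher in HAD2 than in LAD2 and in sP than in sNP, without a call.

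The third Abat probe set, 1391365_at, had the smallest p of the 16 probe sets in sP and sNP. The 8 sP arrays ran from 7.68 to 8.18 with a median of 8.06, and the 9 sNP arrays from 7.18 to 7.999 with a median of 7.71. Of the 8 sP arrays 1 lay below the sNP median, and both lines overlapped. The difference was 0.29 (interval 0.07 to 0.51; unadjusted p = 0.0139, adjusted p = 0.9998 from limma). Without the 4 doubted arrays of the pair it was 0.43 ± 0.11 (adjusted p = 0.0727 from limma). In the other pairs it was 0.01 ± 0.07 in HAD1 and LAD1, 0.04 ± 0.07 in HAD2 and LAD2, -0.11 ± 0.11 in P and NP, and -0.03 ± 0.15 in AA and ANA. The striatal markers named above were higher in sP in 10 of 10 genes, and vascular markers in 9 of 9 (median 0.13; 8 of 9 and 0.07 without sNP 3); their part in the Abat value was not tested.

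Gabbr1, the GABA-binding subunit of the GABA-B receptor, gave the smallest p of the 16 probe sets in 3 of 5 pairs, through 2 of its 5 probe sets. Probe set 1388030_a_at was lower in the preferring line in 5 of 5 pairs, and 36 of the 47 preferring arrays lay below the median of their partner line. Neither count was made over all probe sets, so how often either arises on the array is not known. In HAD1 the 9 arrays ran from 6.61 to 6.995 with a median of 6.75, and in LAD1 from 6.77 to 7.34 with a median of 6.94. In HAD2 they ran from 6.62 to 7.44 with a median of 6.99, and in LAD2 from 6.92 to 7.61 with a median of 7.32. The preferring line lay low in both pairs, and its arrays overlapped those of the other line. In P they ran from 7.86 to 8.89 with a median of 8.34, and in NP from 8.15 to 8.79 with a median of 8.45. In AA they ran from 7.16 to 7.79 with a median of 7.505, and in ANA from 7.36 to 8.50 with a median of 7.65. In sP they ran from 7.08 to 7.53 with a median of 7.21, and in sNP from 7.20 to 7.42 with a median of 7.33. Line means of 1388030_a_at in the HAD and LAD lines, from 6.76 in HAD1 to 7.24 in LAD2, lay below the median of every array (7.77 to 8.02). Without detection calls, low expression and background cannot be told apart for this probe set in those lines.

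The differences of 1388030_a_at were -0.22 (interval -0.39 to -0.06; adjusted p = 0.239 from limma) in HAD1 and LAD1, -0.23 (-0.46 to 0.01; adjusted p = 0.327) in HAD2 and LAD2, -0.03 (-0.28 to 0.21; adjusted p = 1) in P and NP, -0.31 (-0.58 to -0.03; adjusted p = 0.976) in AA and ANA, and -0.07 (-0.21 to 0.07; adjusted p = 0.9998) in sP and sNP. The highest values in P were the doubted arrays P 1 at 8.89 and P 9 at 8.82, and the doubted ANA 16 and ANA 18 lay at 7.47 and 7.45, below the ANA median. Without doubted arrays the Gabbr1 difference was -0.26 ± 0.08 in HAD1 and LAD1, -0.16 ± 0.11 in P and NP, -0.36 ± 0.15 in AA and ANA and -0.08 ± 0.08 in sP and sNP, none past the test. In AA, where this difference was largest, oligodendrocyte markers were lower in 10 of 10 genes (median -0.16) beside the striatal markers, or in 7 of 10 (median -0.04) without AA 3, and their part was not tested.

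**Figure D2:**
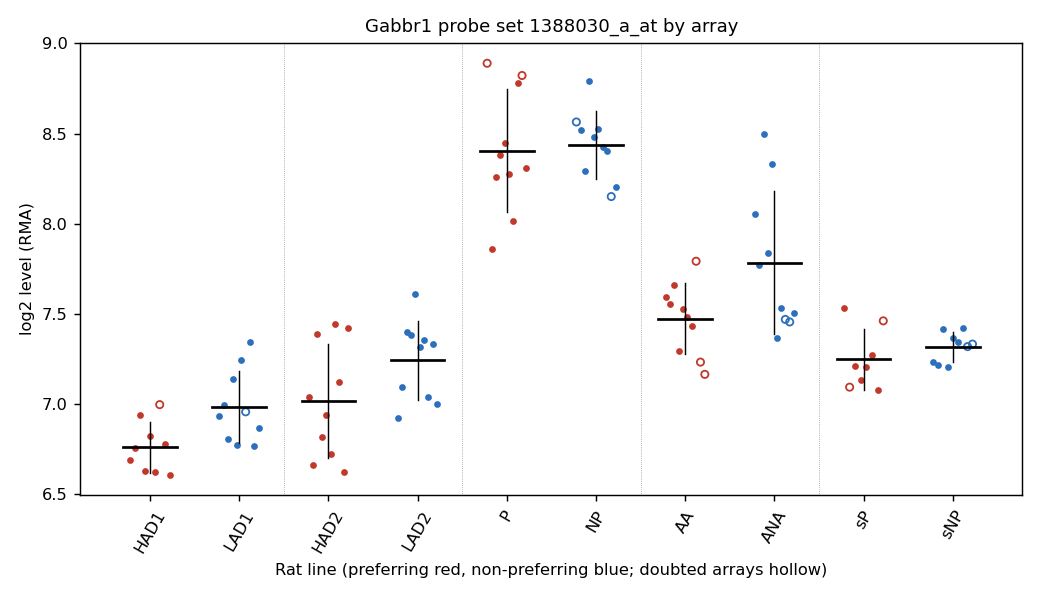
Log2 level of the Gabbr1 probe set 1388030_a_at in every array by line (red, preferring; blue, non-preferring; hollow, doubted arrays), with the mean and SD of each line. The preferring line has the lower mean in 5 of 5 pairs, by 0.03 to 0.31, and arrays of both lines overlap in each. How many of all probe sets have the same sign in 5 of 5 pairs was not counted.

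The other 4 Gabbr1 probe sets did not share that pattern. The representative probe set, 1375720_at, had the smallest p in HAD2 and LAD2. The 10 HAD2 arrays ran from 12.77 to 13.10 with a median of 13.01 and the 10 LAD2 arrays from 13.01 to 13.19 with a median of 13.12, so that 10 of 10 HAD2 arrays lay below the LAD2 median. The difference was -0.14 (interval -0.23 to -0.05; unadjusted p = 0.0030, adjusted p = 0.0648 from limma). It was -0.05 ± 0.09 in HAD1 and LAD1, 0.02 ± 0.04 in P and NP, 0.04 ± 0.07 in AA and ANA, and -0.03 ± 0.04 in sP and sNP. Leaving out HAD2 8 or LAD2 11, the adjusted p of the HAD2 difference was 0.0372 and 0.0424 in limma; over all 20 arrays left out in turn it ran from 0.0372 to 0.125, with the difference between -0.16 and -0.12.

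Probe set 1369371_a_at gave 0.20 ± 0.09 in HAD1 and LAD1 (unadjusted p = 0.0288 from limma) and -0.10 ± 0.10 in HAD2 and LAD2. In the other pairs it was 0.01 ± 0.13 in P and NP, -0.02 ± 0.09 in AA and ANA, and 0.01 ± 0.09 in sP and sNP. Probe set 1388039_a_at gave 0.24 ± 0.18 in HAD1 and LAD1 against -0.32 ± 0.15 in HAD2 and LAD2, and 0.01 ± 0.06, 0.04 ± 0.08 and -0.01 ± 0.06 in P, AA and sP against their partners. Probe set 1369372_at gave 0.04 ± 0.08, -0.19 ± 0.08, -0.02 ± 0.06, 0.11 ± 0.06 and -0.01 ± 0.05 in the order HAD1, HAD2, P, AA and sP. Its line means ran from 5.46 in ANA to 7.51 in LAD2, and those of 1369371_a_at from 5.91 in HAD2 to 6.40 in HAD1 among HAD and LAD lines. At such low levels low expression and background cannot be told apart. In HAD2 and LAD2 all 5 Gabbr1 probe sets were negative, and in HAD1 and LAD1 they were of both signs. After subtraction of line means, the 5 probe sets correlated with each other over the 96 arrays at r from -0.02 to 0.40 (median 0.24 over 10 combinations), a description of arrays that share depth of labelling and dissection.

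Gabbr2, the G protein coupling subunit, gave differences of both signs over pairs, without a call. Its representative probe set, 1387383_at, gave -0.12 (interval -0.30 to 0.07) in HAD1 and LAD1, -0.04 (-0.22 to 0.14) in HAD2 and LAD2, 0.14 (-0.20 to 0.49) in P and NP, 0.22 (-0.05 to 0.48) in AA and ANA, and -0.01 (-0.24 to 0.21) in sP and sNP. The other, 1368952_at, gave 0.08 ± 0.06, -0.08 ± 0.06, 0.14 ± 0.13, 0.02 ± 0.10 and 0.03 ± 0.07 in that order. Its line means ran from 5.30 in sNP to 6.40 in HAD1, so low expression and background cannot be told apart for it. For 1387383_at the doubted array P 9 lay at 12.88, against 11.84 for the next P array. Without doubted arrays the difference of 1387383_at was 0.05 ± 0.13 in P and NP and 0.36 ± 0.13 in AA and ANA, neither past the test. In AA and ANA, Gabbr2 1387383_at was positive and Gabbr1 1388030_a_at negative, neither past the test, and the difference between those genes was not tested.

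Gphn, the inhibitory synapse scaffold, had the narrowest interval of the 16 probe sets for the mean of the 5 differences, given below, and no call in a pair. Its level averaged 11.27 in LAD1 to 11.57 in sP. The 8 sP arrays ran from 11.52 to 11.63 with a median of 11.57 and the 9 sNP arrays from 11.42 to 11.59 with a median of 11.53, a difference of 0.06 (interval -0.01 to 0.13). It gave 0.07 ± 0.06 in HAD1 and LAD1, -0.05 ± 0.05 in HAD2 and LAD2, -0.01 ± 0.05 in P and NP, and -0.02 ± 0.05 in AA and ANA.

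**Figure D3:**
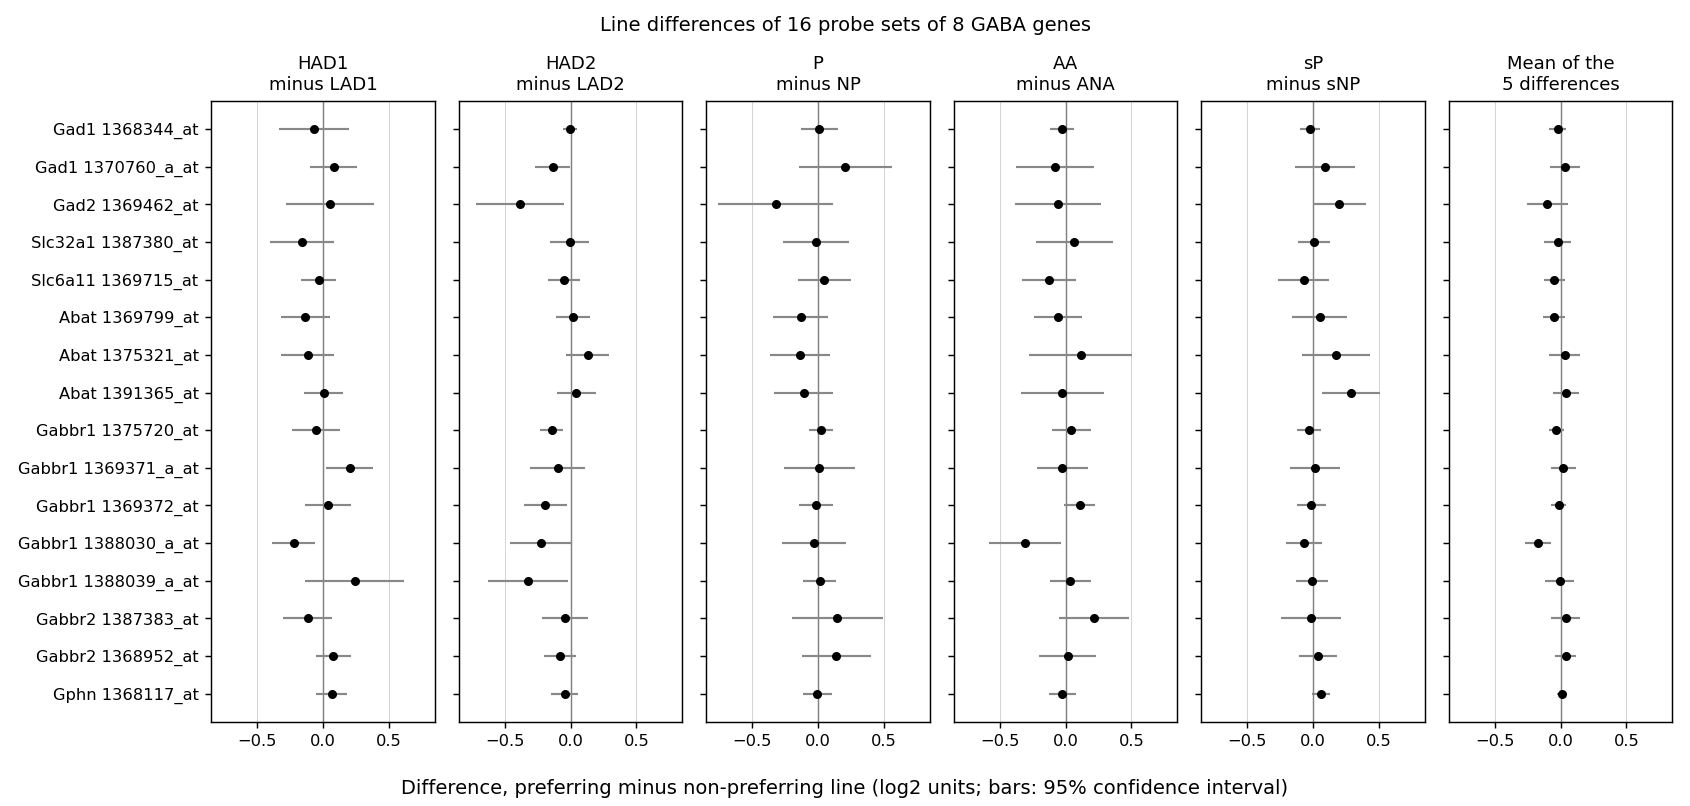
Difference between preferring and non-preferring line (horizontal axis, log2 units) of the 16 probe sets in each pair and as the mean of the 5 differences; bars are 95% intervals and the vertical line is 0. Gabbr1 1388030_a_at lies left of 0 in every panel, with a mean of -0.17, and Gad2 has the widest interval of the means.

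Over pairs, no probe set of the 8 genes was called either. The mean of the 5 differences, each pair with equal weight in a fit of all 96 arrays, called 0 of 16 at an adjusted p under 0.05, against 0.986% of all probe sets, and 1 of 16 at an unadjusted p under 0.05, against 7.80%. That probe set was Gabbr1 1388030_a_at, with a mean difference of -0.17 ± 0.05 (interval -0.27 to -0.07; unadjusted p = 9.07e-04, adjusted p = 0.0775 from limma), lower in 5 of 5 pairs. Without the 15 doubted arrays the Gabbr1 mean was -0.22 ± 0.05 and passed the test (adjusted p = 0.0064 from limma), in a fit that called 901 of 31042 probe sets (2.9%). Leaving out single arrays it passed in 5 of 96 fits, without HAD2 7, HAD2 10, P 1, P 9 or ANA 12, with adjusted p from 0.0388 to 0.0478 there and up to 0.114 in the other fits. With LAD1 36 counted as HAD1 the Gabbr1 mean was -0.16 ± 0.05 (adjusted p = 0.171 from limma).

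For the other members the mean of the 5 differences was small, with intervals that include 0. The means were -0.02 for Gad1 1368344_at (interval -0.09 to 0.04), 0.03 for Gad1 1370760_a_at (-0.08 to 0.15), -0.10 for Gad2 (-0.26 to 0.05), -0.02 for Slc32a1 (-0.12 to 0.08) and -0.05 for Slc6a11 (-0.13 to 0.03). For Abat they were -0.05 (-0.13 to 0.03), 0.03 (-0.09 to 0.15) and 0.04 (-0.06 to 0.14) in the order 1369799_at, 1375321_at and 1391365_at. The other Gabbr1 probe sets gave means between -0.03 and 0.02, those of Gabbr2 gave 0.04 for both probe sets, and Gphn gave 0.01 (-0.03 to 0.05). The widest interval of a mean difference, that of Gad2, extended 0.16 to either side.

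With the line pair as the replicate, since breeding for preference was repeated by pair, 0 of 16 were called, against 0% of all probe sets, and 1 of 16 lay under an unadjusted p of 0.05, against 3.35%. That was again Gabbr1 1388030_a_at (interval -0.29 to -0.06; unadjusted p = 0.0091, adjusted p = 0.9992 from limma over the 5 pair differences). The F test of variation of the 5 differences called 0 of 16, against 4.54% of all probe sets, and put 2 of 16 under an unadjusted p of 0.05, against 14.7%. Both were Gabbr1 probe sets, 1369372_at (unadjusted p = 0.0314, adjusted p = 0.268) and 1388039_a_at (unadjusted p = 0.0418, adjusted p = 0.313). The median size of the 16 mean differences was 0.03, and that of all probe sets was 0.02.

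Levels across pairs of a member with several probe sets depended on which of them was read. Gabbr1 1369371_a_at averaged 5.91 to 6.40 in the HAD and LAD lines and 9.64 to 9.88 in the other 6 lines, while Gabbr1 1369372_at averaged 6.56 to 7.51 and 5.46 to 5.99 in the same groups of lines. Between these line groups the Gabbr1 probe sets moved by 3.66, -1.31, 0.78, 1.18 and -0.21 (1369371_a_at, 1369372_at, 1388030_a_at, 1388039_a_at and 1375720_at), as the mean of the 6 lines less that of the 4. Gad2, with 1 probe set, moved by 0.96. The GAPDH ratio moved with the same split. So did the mean levels of GABA neuron markers (9.39 to 9.695 in HAD and LAD lines, 10.32 to 10.44 in the others) and striatal markers (9.04 to 9.22, 10.51 to 11.29). Those of astrocyte markers overlapped (12.18 to 12.39, 12.36 to 12.46). The part of the GAPDH ratio and of these markers in the member levels was not tested. The shift between line groups exceeded 1 in size for 4 of the 16 probe sets, against 16.8% of all probe sets. Its median size was 0.31 over the members and 0.49 over all.

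**Figure D4:**
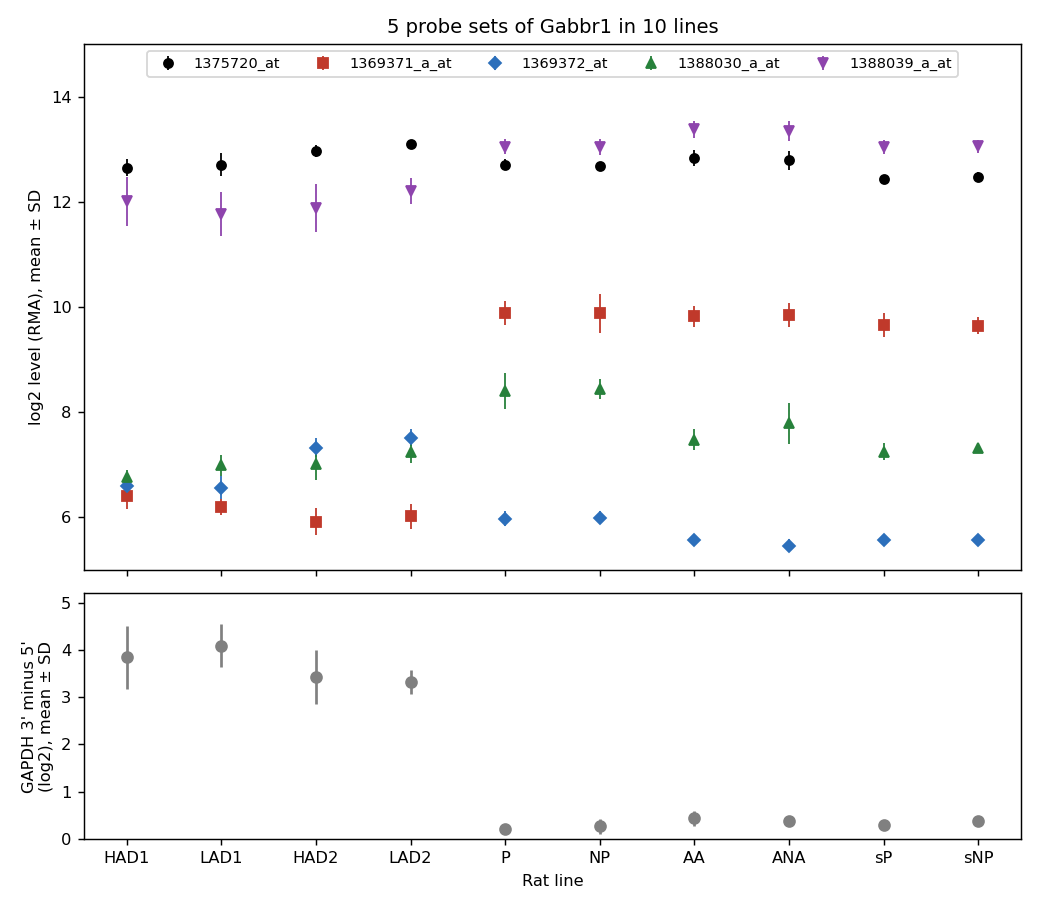
Upper panel, mean ± SD log2 level of the 5 Gabbr1 probe sets in 10 lines; lower panel, mean ± SD of the log2 GAPDH 3' minus 5' control ratio. The HAD and LAD lines stand apart in 1369371_a_at and 1388039_a_at, which are low there, in 1369372_at, which is high, and in the GAPDH ratio. For 1388030_a_at the HAD and LAD means are the lowest, with LAD2 at 7.24 beside sP at 7.25. For 1375720_at the lines of both groups are interleaved.

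Line means of a member often ran close together. A gap between neighbours in that order was counted as clear where it exceeded 1 SD of both lines. Of 9 gaps, 0 were clear for Gad1 1368344_at, Gad2, Slc6a11, Abat 1369799_at, Abat 1391365_at and Gabbr2 1387383_at. There was 1 for Slc32a1 (LAD1 to P), Gphn (LAD2 to sNP), Gad1 1370760_a_at (LAD2 to sNP), Abat 1375321_at (AA to P), Gabbr2 1368952_at (sP to ANA) and Gabbr1 1369371_a_at (HAD1 to sNP). Gabbr1 1388030_a_at had 2 (HAD1 to LAD1, ANA to P), as did 1388039_a_at (LAD2 to NP, sNP to ANA) and 1375720_at (sNP to HAD1, HAD2 to LAD2). Gabbr1 1369372_at had 4 (sNP to P, NP to LAD1, HAD1 to HAD2, HAD2 to LAD2). The lines of 1 pair were clear neighbours for 3 probe sets, all of Gabbr1: 1388030_a_at in HAD1 and LAD1, and 1369372_at and 1375720_at in HAD2 and LAD2. Gabbr1 has 5 of the 16 probe sets. Clear gaps were not counted over all probe sets, so these counts are a description of the members alone.

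Other GABA genes were read with 1 probe set per gene, where 0.682% of all 14217 genes were called in HAD1 and LAD1, 3.75% in HAD2 and LAD2, and 0.816% in the mean of the 5 differences. Among genes of GABA transport and metabolism other than the 8 (7 of 11 measured), 0 passed the test in any pair or in the mean, and their mean differences ran from -0.06 to 0.05. Among 12 measured GABA-B effectors and auxiliary proteins 0 passed as labelled, with mean differences from -0.19 to 0.20. Without the doubted arrays the tests called 2.02% of all genes in HAD1 and LAD1, 1.51% in sP and sNP, and 2.41% in the mean, and 3 of these 12 genes: Kcnj5, a subunit of the GIRK potassium channel that GABA-B receptors open, was -0.35 ± 0.09 in HAD1 and LAD1 (adjusted p = 0.0421 from limma). In the mean of the 5 differences without doubted arrays, the GABA-B auxiliary subunit Kctd12 was -0.10 ± 0.03 (adjusted p = 0.0248) and the RGS7 binding protein Rgs7bp was -0.28 ± 0.08 (adjusted p = 0.0462). Among 16 measured GABA-A receptor subunits, Gabra3 was higher in HAD1 than in LAD1 by 0.27 ± 0.06 (adjusted p = 0.0263 from limma). The Gabra3 probe set averaged 5.83, at the 21.4 percentile of brightness, so low expression and background cannot be told apart for it. Without the doubted arrays Gabra4 was 0.66 ± 0.15 in sP and sNP (adjusted p = 0.0314) and Gabra2 was 0.27 ± 0.07 in the mean (adjusted p = 0.0112). Among 12 measured genes of the inhibitory synapse scaffold and chloride transport, the synaptic adhesion gene Slitrk3 rose in HAD2 against LAD2 by 0.34 ± 0.09 (adjusted p = 0.0344 from limma), and no other gene passed in a pair or the mean.

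The members correlated weakly from array to array within lines. After subtraction of line means, the 28 combinations of the 8 representative probe sets correlated over 96 arrays at r from -0.35 to 0.53, with a median of 0.16. The highest was between Slc32a1 and Abat 1369799_at (0.53), and the lowest between Abat 1369799_at and Gabbr2 1387383_at (-0.35). The genes most like each member over the 96 arrays by the same measure, given as a description because arrays share labelling and dissection, were Pcnp, Atp5mc3 and Atp1b1 for Gad1 (r = 0.83, 0.82 and 0.80). For Gad2 they were Pak3, Pde1a and Calcr (0.60, 0.59 and 0.57). For Slc32a1 they were Cox7a2l, Atmin and Smarcd3 (0.70, 0.70 and 0.69). For Slc6a11 they were Ccdc136, Gjb6 and Npr2 (0.62, 0.59 and 0.57), of which Gjb6 is a connexin of astrocytes. For Abat they were Cables2, Cplx1 and Arhgap27 (0.79, 0.79 and 0.77), and for Gabbr1 Prkaca, Tmem130 and Mrpl49 (0.68, 0.68 and 0.63). For Gabbr2 they were LOC102549269, Sobp and Tafa1 (0.86, 0.81 and 0.80), and for Gphn Micu3, Kpna1 and Dmxl2 (0.66, 0.63 and 0.60). Likeness rested on different arrays: for Gad1 and Pcnp r was 0.93 over the 39 HAD and LAD arrays and 0.54 over the other 57, and for Slc6a11 and Gjb6 it was 0.27 and 0.67.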

How the data were processed

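The deposited table holds log2 values of 96 arrays, made by the authors with RMA, per the submitters' processing notes; neither its version nor the set of arrays it was run on is stated in the sources used here. Per the labels, biotin cRNA was made from 25 ng of total RNA with the 2-cycle Affymetrix protocol. The 57 AFFX controls were left out of tests. Names come from the platform annotation (20826 probe sets with 1 symbol, 436 with several, 9780 not listed).

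Tests used limma 3.58.1 in R 4.3.3 with an intensity trend, within each pair, and in all 10 groups for the mean and variation of the 5 differences; Benjamini-Hochberg adjustment ran over 31042 probe sets. The test was checked only on simulated shifts larger than any member difference, with noise independent between arrays and probe sets. That check does not tell how often differences of the sizes given here would be called. The number of arrays limits the precision. Of a gene's 1-symbol probe sets, that of the highest mean represents it. Named by rule: all 16 member probe sets; genes of other lists past a test; 3 like genes per member; arrays for the smallest p per pair. Members and lists were chosen with earlier results of these data known. The doubted-array score took the 100 probe sets separating the lines best in the other arrays, on odd and on even chromosomes.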

Additional observations from a re-analysis of the deposited data

Results flagged for a closer look

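Of 160 combinations of probe set and line, 22 had an array whose gap to its nearest neighbour was wide against the range of its line by Dixon's 95% criterion, where chance gives about 1 in 20 groups. For Gad1 1370760_a_at these were HAD2 10 at a log2 level of 5.999, NP 10 at 6.688 and AA 17 at 6.631. For Slc32a1 they were NP 9 at 12.149 and AA 19 at 11.496, and for Slc6a11 ANA 6 at 5.974 and sP 2 at 5.601.

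Among the Abat probe sets, 1369799_at stood apart in LAD2 11 at 9.935 and AA 3 at 8.944, 1375321_at in ANA 6 at 6.131 and sNP 3 at 6.680, and 1391365_at in ANA 6 at 6.634. ANA 6 was thus low in 2 Abat probe sets and high in Slc6a11.

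For Gabbr1, 1375720_at stood apart in AA 19 at 12.434; 1369371_a_at in HAD1 30 at 7.0, LAD2 13 at 6.616 and AA 19 at 9.362. Probe set 1369372_at did so in LAD1 38 at 7.072 and LAD2 11 at 7.116, and 1388039_a_at in LAD1 33 at 10.731 and AA 19 at 13.007. Gabbr2 1387383_at stood apart in P 9 at 12.876 and Gphn in P 5 at 11.087. AA 17, AA 19, NP 9, P 9 and sP 2 are doubted arrays. No array of 1388030_a_at met the criterion in any line.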

How the results depend on the processing

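Of 1097 member differences recomputed over 18 alternative settings, 49 changed sign, 0 of them with a labelled difference above its SE. With array weights the called members numbered 1 in HAD2 and LAD2, 1 in the mean of the 5 differences and 2 in the variation, where 1815, 692 and 3972 of all probe sets were called. The mean had 1 called member, Gabbr1 1388030_a_at, with the GAPDH ratio as a covariate (-0.19, adjusted p = 0.0176 from limma; 354 of all probe sets called), without the doubted arrays and without P and NP (-0.21, adjusted p = 0.0305; 365 called); without other pairs in turn its adjusted p ran from 0.0850 to 0.330. Leaving out single arrays gave 0 to 1 called members in HAD2 and LAD2 and in the mean, and 0 in the other pairs. Means near 0 reversed: Slc32a1 to 0.0126 and Gphn to -0.0034 without HAD1 and LAD1, Gphn to -0.0020 without sP and sNP, and Gabbr2 1387383_at to -0.0069 without AA and ANA. The causes were not tested. With animal number as a replicate block, 0 members were called in P and NP and in sP and sNP (smallest adjusted p = 0.9365 and 0.8449 from limma). Same-numbered animals deviated together (r over 0.1) in 5 of 10 and 3 of 8 pairs. Their r ran from -0.11 to 0.50 in P and NP and from -0.23 to 0.73 in sP and sNP. Whether the numbers pair samples is not settled by these values, and the labels do not state it. The single-array alternatives for the mean and for the marker lists were chosen after seeing the data.

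Probe sequences were not used here, so a sequence difference under a probe and a difference in expression or in transcript variant cannot be told apart. The p-values of the pairs and of their mean rest on variation among the arrays of each line alone; those with the line pair as the replicate rest on the 5 pair differences.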
